A study of Mus musculus with 6 samples.

Results

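The mitochondrial respiratory chain genes described here encode the nuclear subunits of complexes I to V, a few subunit paralogs and the proteins with Ndufaf and Cox7a2l symbols that help to build or join the complexes. The list was chosen with earlier results of these data known, and its members were set by gene name. A member is any probe set with exactly 1 gene symbol that begins with Ndufa, Ndufb, Ndufc, Ndufs, Ndufv, Uqcr, Atp5 or Cox4 to Cox8. Probe sets whose 1 symbol is Sdha, Sdhb, Sdhc or Sdhd are members too. This gave 90 of the 18193 genes named on the array, measured by 179 of 45037 probe sets. A filter on dim probe sets, applied to the whole array, kept 164 of them for 86 genes (among 27022 kept in all), and another 10 probe sets that list a matching symbol together with others were left out. Whole kidneys of mice at embryonic day 12.5 were measured on 6 Affymetrix oligonucleotide arrays. The 3 normal arrays came from kidneys for which no genotype beyond normal is given. The 3 knockout arrays came from beta-catenin deficient kidneys carrying Hoxb7-Cre,Gfp, a Cre recombinase transgene whose promoter is active in the ureteric bud, with loxP sites around exons 2 to 6 of the beta-catenin gene Ctnnb1, so the other cells of the organ are not the target of Cre. Kidneys were pooled into vials, the number of animals in each is not given, and p-values measure the spread between these vials, part of which may be technical.

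The respiratory chain sits in the inner mitochondrial membrane. Complex I takes electrons from NADH and complex II from succinate, ubiquinone carries them to complex III, cytochrome c carries them to complex IV, and complex IV passes them to oxygen. Complexes I, III and IV pump protons, and complex V, the ATP synthase, lets protons back through its c-ring to make ATP. The tubules of the mature kidney depend heavily on this chain for salt transport, whereas the embryonic kidney at this stage is made of progenitors, early nephrons, stroma and the branching ureteric bud, from which the collecting ducts form.

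Titles set the groups, because the description of the knockout samples repeats the wording for normal kidneys. The 3 probe sets of Ctnnb1 did not settle it: their log2 differences, knockout minus normal, were 0.09, 0.12 and 0.16. Any direction below is therefore that of the libraries labelled knockout. Of 12 early kidney markers, 11 were on the array and all 11 were kept, with summed signals between 6763 and 7322 on every array, and 3 of 8 proximal tubule markers were kept. Log2 signals correlated at 0.951 to 0.977 between arrays. Skeletal muscle markers (23 on the array, 17 of them kept) summed, over those on the array, to 867 to 992 on the normal arrays and to 1990, 9443 and 1058 in knockout replicates 1, 2 and 3. The 9 erythroid markers on the array (of 11, with 7 kept) summed to 12637 to 18182 on normal and 15812 to 22183 on knockout arrays, and the 12 macrophage markers to 543 to 1215 and 1125 to 1628. No marker measured was listed at 0 on any array. Of the kept markers, 16 of 17 for skeletal muscle, 7 of 7 erythroid and 11 of 12 macrophage genes lay on the higher side. Their median log2 differences, knockout minus normal, were 1.65, 0.86 and 0.73. The early kidney markers split 5 higher to 6 lower, with a median of -0.009. None of these lists had a gene past the threshold, and the part of these lists in the results below was not tested. In whole organs, fewer cells that express a gene and less RNA per cell cannot be told apart.

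Promoters of these genes are known for binding sites of NRF-1, of ETS factors such as GABP, and of YY1, regulators of nuclear genes for mitochondria. RefSeq promoter windows (build GRCm38.p6, 250 bases before to 50 bases after a start) were found for 74 of the 90 genes, as 79 windows of 300 bases. Exact matches on both strands were counted for GCGCATGC (NRF-1 core), CCGGAAG (ETS) and AAGATGGC (YY1). A palindromic NRF-1 site holds the core on both strands, overlapping, and was counted once per window. The NRF-1 core stood in 13.9% of members' windows, against 2.71% of all 32851 windows and 3.52% of those of protein-coding genes. The ETS letters stood in 24.1%, against 8.86% and 11.6%, and the YY1 letters in 12.7%, against 2.75% and 3.05%. At least 1 of these motifs was found in 41.8% of members' windows, against 13.3% of all windows and 16.7% of those of protein-coding genes. By class that share ran from 25% (complex IV, 12 windows) to 66.7% (complex II, 3 windows). The single motifs were not shared evenly. YY1 letters stood in 0 windows of complexes II, III and IV and in 18.2% of the 33 windows of complex I. In complex I the NRF-1 core stood in 6.06% and the ETS letters in 12.1%. Members' windows were also richer in G and C, with a median of 59% against 52.7% for all windows and 56.3% for protein-coding genes. A match is a description of letters, not of binding.

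The windows below show 1 gene each of complexes II to V whose window holds both the NRF-1 core and the ETS letters, with the matches in capitals, read 5′ to 3′ on the gene's strand. They lie at chr4:140961021-140961320, plus strand (Sdhb), chr10:80406772-80407071, minus strand (Uqcr11), chr5:115348909-115349208, minus strand (Cox6a1), and chr5:108434350-108434649, minus strand (Atp5k).
Sdhb: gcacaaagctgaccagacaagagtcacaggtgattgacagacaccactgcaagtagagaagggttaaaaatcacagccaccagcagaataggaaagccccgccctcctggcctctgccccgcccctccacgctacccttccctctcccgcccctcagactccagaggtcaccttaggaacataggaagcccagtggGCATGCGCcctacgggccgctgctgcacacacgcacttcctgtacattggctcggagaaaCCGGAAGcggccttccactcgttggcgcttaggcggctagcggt
Uqcr11: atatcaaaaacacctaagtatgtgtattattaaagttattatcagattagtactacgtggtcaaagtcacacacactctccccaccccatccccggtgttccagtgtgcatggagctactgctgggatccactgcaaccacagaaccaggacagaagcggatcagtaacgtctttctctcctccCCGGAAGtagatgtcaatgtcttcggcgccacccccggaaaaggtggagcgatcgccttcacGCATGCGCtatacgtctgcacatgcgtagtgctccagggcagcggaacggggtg
Cox6a1: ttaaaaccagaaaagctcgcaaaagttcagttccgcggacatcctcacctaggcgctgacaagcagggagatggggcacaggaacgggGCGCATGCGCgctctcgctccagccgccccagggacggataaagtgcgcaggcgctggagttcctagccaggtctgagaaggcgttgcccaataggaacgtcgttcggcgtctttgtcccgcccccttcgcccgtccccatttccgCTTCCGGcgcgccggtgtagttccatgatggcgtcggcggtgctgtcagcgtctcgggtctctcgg
Atp5k: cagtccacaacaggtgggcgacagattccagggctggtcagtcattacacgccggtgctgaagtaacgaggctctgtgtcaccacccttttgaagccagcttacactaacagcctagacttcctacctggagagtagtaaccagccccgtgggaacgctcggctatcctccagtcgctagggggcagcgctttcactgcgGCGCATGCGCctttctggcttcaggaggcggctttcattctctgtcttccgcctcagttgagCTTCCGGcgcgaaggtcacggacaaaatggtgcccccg
In Cox6a1 and Atp5k the capitals GCGCATGCGC hold the core on both strands, and CTTCCGG is the ETS match read on the other strand. These genes differed little between the groups: the log2 differences were 0.01 for Sdhb, -0.07 for Uqcr11, -0.15 and -0.09 for the probe sets of Cox6a1, and -0.02, -0.04 and -0.09 for those of Atp5k, and none passed.

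The windows of Ndufa12 (chr10:94198785-94199084, plus strand) and Uqcr10 (chr11:4704295-4704594, minus strand) are shown because these are the genes with a probe set past the threshold. Neither window holds any of the 3 motifs, so no letter is in capitals.
Ndufa12: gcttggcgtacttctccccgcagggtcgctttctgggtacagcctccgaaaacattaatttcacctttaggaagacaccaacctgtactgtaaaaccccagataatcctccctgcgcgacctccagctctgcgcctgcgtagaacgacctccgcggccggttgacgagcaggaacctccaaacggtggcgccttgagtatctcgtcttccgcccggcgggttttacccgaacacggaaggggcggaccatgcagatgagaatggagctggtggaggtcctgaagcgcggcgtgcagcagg
Uqcr10: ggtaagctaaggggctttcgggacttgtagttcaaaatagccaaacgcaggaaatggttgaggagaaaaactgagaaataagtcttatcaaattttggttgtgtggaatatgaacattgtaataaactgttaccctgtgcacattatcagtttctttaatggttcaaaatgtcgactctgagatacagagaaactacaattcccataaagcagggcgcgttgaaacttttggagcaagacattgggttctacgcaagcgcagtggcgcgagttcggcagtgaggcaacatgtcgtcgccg

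As a group, the nuclear respiratory chain genes were measured at nearly the same level in knockout and normal kidneys. The median log2 difference, knockout minus normal, over the 164 kept probe sets was 0.016, beside -0.011 over all kept probe sets, with 90 members on the higher and 74 on the lower side. Probe sets of 2 genes rose, Ndufa12 of complex I and Uqcr10 of complex III, and none fell, at a limma adjusted p under 0.05 (Benjamini-Hochberg, over all 27022 kept probe sets). That is 1.22% of the kept members against 0.581% of all kept probe sets, of which 0.381% were higher and 0.200% lower. The Uqcr10 probe set was kept by the filter only through its knockout values, so this share supports no difference from the background. At an unadjusted p under 0.05 there were 15 members, 9.15%, against 11.5% of all kept probe sets. The groups did not overlap for 24 members, 14.6%, against 17.9% of all. Neither share stood above its background.

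The precision was good for most members, because most were bright. The 95% interval of the difference lay within 1.5-fold either way for 132 of 164 members (80.5%), against 45.7% of all kept probe sets. Of the members, 108 had a mean signal over 1024, and there the median SE of a log2 difference was 0.091, close to 0.089 for all 2123 probe sets that bright. Over these 108 the differences ran from -0.48 (Ndufs5) to 0.86 (Ndufa12), with a median of 0.018. The 27 members under a signal of 128 had a median SE of 0.305 and ran from -1.35 (Atp5g2) to 3.87 (Uqcr10). At the level of genes, by the brightest kept probe set of each, 0 of 86 passed against 0.602% of all 12464 genes, and 7 (8.14%) had an unadjusted limma p under 0.05 against 11.7%.

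**Figure D1:**
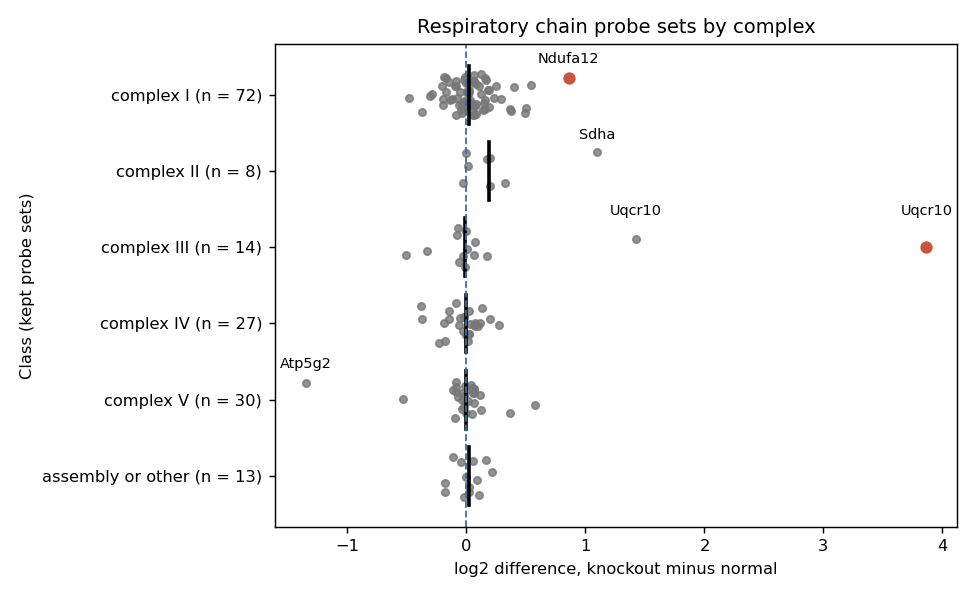
Each point is a kept probe set, placed by its log2 difference (knockout minus normal, horizontal axis) and by class (vertical axis), with black bars for class medians and red points for the 2 probe sets past the threshold. The medians of complexes I, III, IV and V lie within 0.03 of 0, and that of complex II is 0.19. The widest differences belong to probe sets of Uqcr10 (3.87 and 1.43), Atp5g2 (-1.35), Sdha (1.10) and Ndufa12 (0.86).

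**Figure D2:**
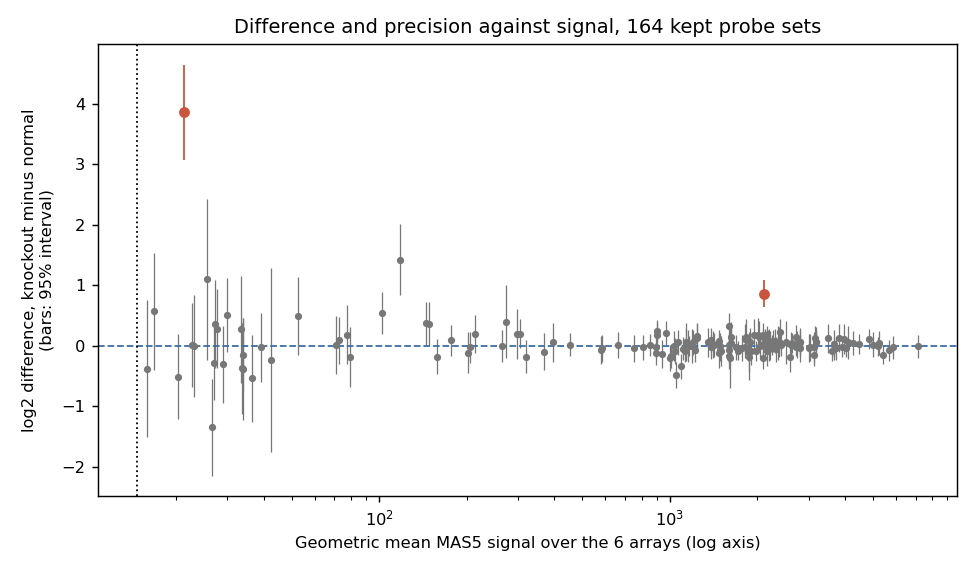
The log2 difference of each kept member, with its 95% interval as a bar, is plotted against its geometric mean signal on a log axis, and the dotted line marks the filter level of 14.7. Intervals are narrow above a signal of 1024, where the median SE is 0.091, and wide under 128, where it is 0.305.

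The arrays of a group differed among themselves more than the groups did. Taking each member relative to its normal mean, the median over all 164 was -0.10, 0.11 and -0.01 in normal replicates 1, 2 and 3 and -0.01, -0.01 and 0.07 in knockout replicates 1, 2 and 3. Normal replicate 1 was the lowest and normal replicate 2 the highest, and the knockout arrays lay between them. Over all kept probe sets the same medians were 0.04, -0.04 and 0.02 and 0.02, 0.00 and -0.03, so the order of the first pair of normal arrays was turned around there. The sign of the members' small median difference turned without normal replicate 1 (-0.043) and without knockout replicate 3 (-0.009), and without normal replicate 2 the median was 0.073. The array medians of every class repeated the order of normal replicates 1 and 2. They stood at -0.10 and 0.11 in complex II, and at -0.14 and 0.08 in the class of Cox7a2l and the Ndufaf proteins.

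**Figure D3:**
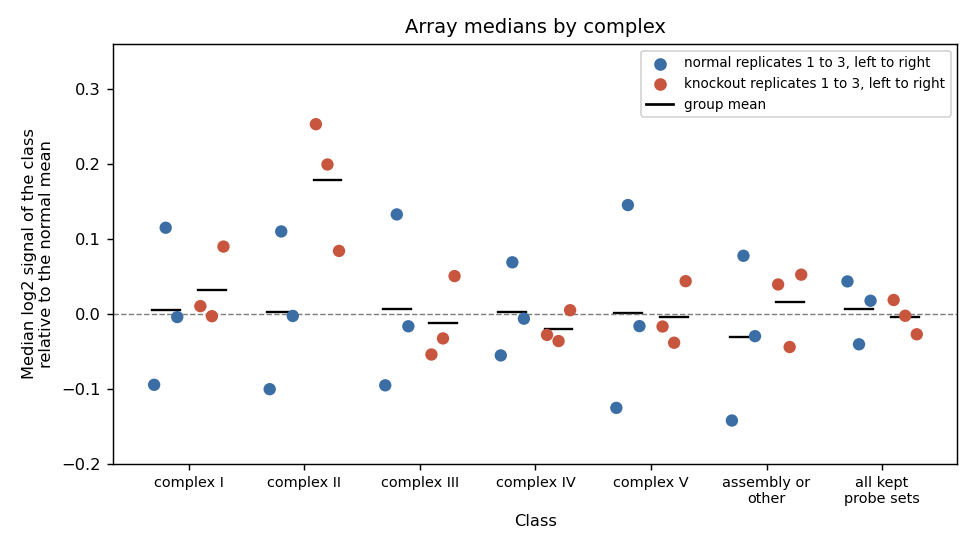
Points are the medians, by class and array, of log2 signal relative to the normal mean (vertical axis), with normal replicates 1 to 3 in blue and knockout replicates 1 to 3 in red, and bars for group means. Normal replicates 1 and 2 stand at the bottom and top of complexes I, III, IV and V, at -0.13 and 0.15 in complex V, and in complex II knockout replicates 1 and 2 stand highest, at 0.25 and 0.20.

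Complex I, NADH dehydrogenase, is the largest of the complexes and supplied 76 probe sets of 34 genes, of which 72 were kept. Its median difference was 0.022, with 44 probe sets higher and 28 lower; 1 passed (1.39%, against 0.581% of all kept probe sets), and 8 had an unadjusted p under 0.05 (11.1% against 11.5%). For 56 of the 72 (77.8%) the interval lay within 1.5-fold. Among the core subunits, Ndufs1 holds iron-sulphur clusters. It read 885.9, 939.9 and 887.8 on the normal arrays and 890, 855.1 and 933.2 on the knockout arrays. Its groups overlapped, with a log2 difference of -0.02 (SE 0.08). The 3 probe sets of Ndufv1, the flavin-containing subunit that oxidises NADH, differed by 0.06, -0.05 and -0.09, and those of Ndufv2, its iron-sulphur partner, by 0.07, 0.15 and -0.20. Ndufs3 differed by -0.02, the pair for Ndufs7 by 0.00 and -0.14, and the 6 probe sets of Ndufs8 by -0.08 to 0.49, the widest being the dim 1434212_at with an SE of 0.29.

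Ndufa12, an accessory subunit of the matrix arm, carried the complex I probe set that rose. Probe set 1455806_x_at read 1393.2, 1693.5 and 1622.8 on the normal arrays and 3092.4, 2627.4 and 2814.5 on the knockout arrays. Every knockout array lay well above every normal array, with means of 1570 ± 157 and 2845 ± 234 (SD, n = 3 each). The log2 difference was 0.86 (SE 0.10, 95% interval 0.64 to 1.08), which is 1.81-fold (limma adjusted p = 0.00800). The suffix x marks probes that may also bind other transcripts. The other probe sets of the gene did not show a rise of this size.

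Probe set 1433513_x_at of Ndufa12 read 1958.4, 2350.3 and 2317.6 on normal and 2581.7, 2458.8 and 2731.3 on knockout arrays, higher without overlap but by only 0.23 (SE 0.09, limma adjusted p = 0.396). Probe set 1418814_s_at read 1517.6, 1812 and 1785.4 against 1425, 1628.6 and 1480.9, a difference of -0.17 (SE 0.09, limma adjusted p = 0.522). The dim 1425919_at differed by -0.29 (SE 0.27). The probe sets of Ndufa12 thus differed in sign, and which of its transcripts each one measures was not tested. The rise of 1455806_x_at was not past the threshold without the intensity trend of the variance (limma adjusted p = 0.130), without the arrays numbered 1 of both groups (0.71, limma adjusted p = 0.0620) or without knockout replicates 1 and 2 (0.85, limma adjusted p = 0.137). The genes on either side, Nr2c1 and Tmcc3, differed by -0.01 and 0.21 and did not pass.

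Ndufs5, an accessory subunit on the intermembrane side, had the most negative difference of complex I. It read 1197, 1367.5 and 1179.2 on the normal arrays and 987.2, 871.1 and 825.2 on the knockout arrays. All 3 knockout arrays lay below all 3 normal arrays. The log2 difference was -0.48 (SE 0.10), short of the threshold (limma adjusted p = 0.0954), and it stayed short under all 19 other settings, where it ran from -0.59 to -0.41 with limma adjusted p from 0.0516 to 0.470. A further probe set that lists Ndufs5 together with its pseudogene was left out, and a near-identical pseudogene could share signal with this one.

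Ndufs4, an accessory subunit needed for a stable matrix arm, was picked out after its values were seen, because all 3 of its kept probe sets lay on the higher side with an unadjusted p under 0.05. The brightest, 1448959_at, read 792.6, 860.1 and 838 on normal and 941.3, 1050.3 and 965.4 on knockout arrays. The groups did not overlap, and the difference was 0.25 (SE 0.08, limma adjusted p = 0.328). The others, 1438166_x_at and 1418117_at, differed by 0.37 and 0.54 (limma adjusted p = 0.418 and 0.237). Probe sets 1448959_at and 1418117_at were designed on the same sequence record, so they are not independent, and none passed.

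The remaining complex I members with an unadjusted p under 0.05 were small differences in bright probe sets. Ndufa13, also known as GRIM-19, read 1939.3, 2123.9 and 2050.4 on normal and 2282.5, 2242.5 and 2331.5 on knockout arrays, a non-overlapping difference of 0.17 (SE 0.07, limma adjusted p = 0.426). Ndufb5, a membrane arm subunit, read 2296.4, 2365.6 and 2090.5 against 1846.3, 2022.7 and 1973.4 on 1448589_at, a difference of -0.21 (SE 0.08, limma adjusted p = 0.385), while its other probe set, 1417102_a_at, overlapped and differed by -0.04. Ndufa6, with an unadjusted p of 0.0663, was not among them but also did not overlap: it read 1182, 1056.6 and 975.1 on normal and 873.1, 958.3 and 965.7 on knockout arrays, a difference of -0.20 (SE 0.09, limma adjusted p = 0.462). Ndufab1, the mitochondrial acyl carrier protein, is also a subunit of complex I, and its bright probe set 1428159_s_at differed by -0.08. The dimmer 1428160_at, designed on the same record, differed by 0.40 (SE 0.27), and its other probe sets, dimmer still, ran from -0.37 to 0.29. Ndufb4 had no kept probe set.

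Complex II, succinate dehydrogenase, also serves the tricarboxylic acid cycle and has only 4 genes, all nuclear. Its 8 kept probe sets had the largest class median, 0.19, with 6 higher and 2 lower, and none passed by limma. At an unadjusted limma p under 0.05 there was 1 (12.5%, against 11.5% of all kept probe sets). Only 3 of the 8 were brighter than 1024, and over those the median was 0.01. Leaving out 1 knockout array gave a class median of 0.091 (replicate 1), 0.146 (replicate 2) or 0.226 (replicate 3). Leaving out 1 normal array gave 0.111 (replicate 1), 0.196 (replicate 2) or 0.181 (replicate 3). Without knockout replicates 1 and 2 it was 0.084.

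Sdha, the flavoprotein that oxidises succinate, gave the smallest p of this complex. Probe set 1426688_at read 1250.1, 1573.3 and 1483.6 on normal and 1805.6, 1879.3 and 1692.8 on knockout arrays. The groups did not overlap, and the difference was 0.33 (SE 0.10, limma adjusted p = 0.280). Probe set 1426689_s_at, designed on the same record, read 790.6, 881.1 and 781.1 against 749.4, 830.7 and 828.7, overlapping, with a difference of -0.03. The dim 1433293_at read 16.9, 7.4 and 42.2 against 49.1, 43.3 and 24.4, a difference of 1.10 with an SE of 0.59. These Sdha probe sets therefore gave no single answer.

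Sdhb, the iron-sulphur subunit, read 1890.5, 2526.3 and 2219.9 on normal and 2155.4, 2154.5 and 2335.1 on knockout arrays. The knockout values lay inside the normal range, and the difference was 0.01 (SE 0.11). Sdhc and Sdhd anchor the enzyme in the membrane. The probe sets of Sdhc differed by -0.00 (1448630_a_at) and 0.19 (1435986_x_at). For Sdhd, 1428235_at read 764.1, 920.1 and 882.1 against 968.6, 931.2 and 993, without overlap, a difference of 0.18 (SE 0.09, limma adjusted p = 0.498), and 1437489_x_at differed by 0.20 with overlap.

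Complex III, the cytochrome bc1 complex, supplied 14 kept probe sets of 8 genes with a median of -0.009, 6 higher and 8 lower. For 11 (78.6%) the interval lay within 1.5-fold. The groups did not overlap for 5 (35.7%, against 17.9% of all kept probe sets), 3 had an unadjusted p under 0.05 (21.4% against 11.5%), and 1 passed (7.14% against 0.581%). These shares rest on few probe sets, 4 of the 5 being pairs for Uqcr10 and Uqcrq. The shares without overlap, at an unadjusted p and past the threshold each count Uqcr10 1434340_at, kept by the filter only through its knockout values. They therefore support no difference from the background. The core proteins Uqcrc1 and Uqcrc2 differed by -0.08 in the single probe set of the first, which lay lower in all 3 knockout arrays (1808, 1709.3 and 1771.2 against 1658.6, 1661.9 and 1679.5, limma adjusted p = 0.671), and by 0.00 and 0.18 in those of the second, with overlap. Uqcrfs1, the Rieske iron-sulphur protein, read 1438.3, 1644 and 1477.4 on normal and 1418.9, 1430.2 and 1495.5 on knockout arrays, a difference of -0.07 (SE 0.08) with overlap. The small subunits Uqcrb (-0.01 and -0.03), Uqcrh (0.07 in both probe sets) and Uqcr11 (-0.07) likewise overlapped. None of these had an unadjusted p under 0.05.

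Uqcr10, a small subunit of complex III, had the largest difference of all members, in a dim probe set. Probe set 1434340_at read 5.3, 6.5 and 5.1 on the normal arrays and 106.2, 55.7 and 91.9 on the knockout arrays. All 3 normal values were under the filter level of 14.7, so this probe set was kept only through its knockout values. The log2 difference was 3.87 (SE 0.35, 95% interval 3.08 to 4.65, limma adjusted p = 0.00238), and its size is poorly measured because the normal signal is near the floor: with 16 added to every signal it was 2.18. It was not past the threshold without the arrays numbered 1 of both groups (limma adjusted p = 0.0620) or without knockout replicates 1 and 2 (limma adjusted p = 0.0845), and a filter at the 60th percentile leaves it out.

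A second probe set of Uqcr10, 1434341_x_at, was designed on the same record and is not independent of the first. It read 83.8, 65.3 and 68.1 on normal and 242.5, 124.7 and 239.1 on knockout arrays, without overlap, a difference of 1.43 (SE 0.26, limma adjusted p = 0.0568), and it passed under 7 of 19 other settings. The brightest probe set, 1424364_a_at, read 993.1, 1366.6 and 1137.3 on normal and 1128.4, 1116.4 and 1206.9 on knockout arrays. Here the knockout values lay inside the normal range, and the difference was -0.01 (SE 0.12, 95% interval -0.27 to 0.25, limma adjusted p = 0.988). The rise was thus seen with the record that both dim probe sets share, and the bright probe set did not show it. In the RefSeq table a long non-coding RNA, Gm51883, overlaps Uqcr10, and the neighbouring genes Ascc2 and Zmat5 differed by -0.07 and -0.08. Whether the dim probe sets measure Uqcr10 itself was not tested.

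Uqcrq, another small subunit, had the lowest differences of complex III. Probe set 1430326_s_at read 1124.5, 1325.5 and 1242.3 on normal and 1009.7, 904.8 and 1010.5 on knockout arrays. Every knockout value lay below every normal value, and the difference was -0.33 (SE 0.09, limma adjusted p = 0.219). The dim 1427880_at also did not overlap and differed by -0.51 (SE 0.31, limma adjusted p = 0.557). Neither passed.

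**Figure D4:**
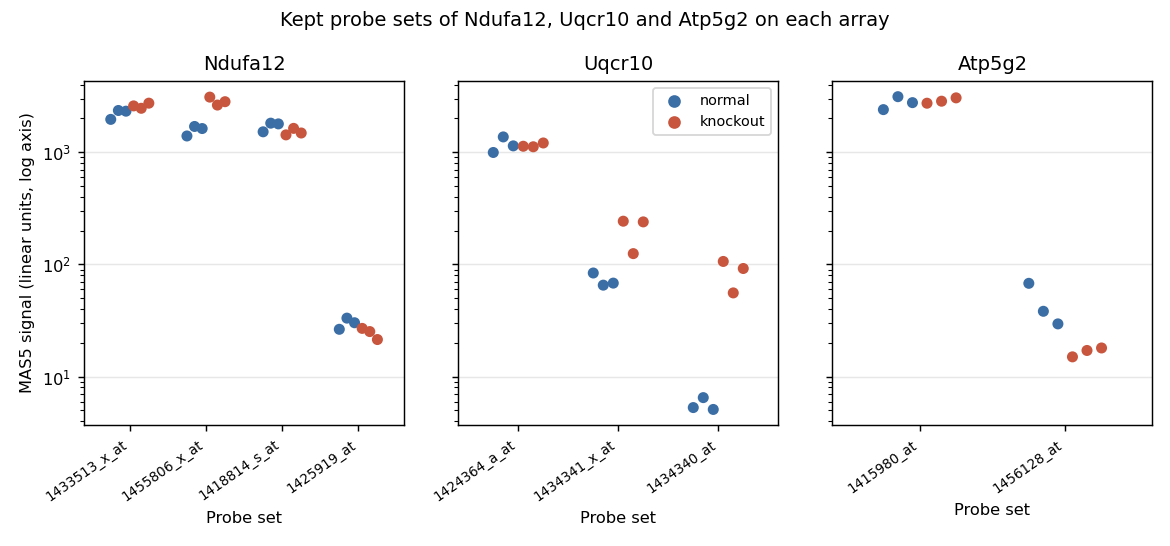
Signal on each array (vertical log axis) is shown for the kept probe sets of Ndufa12, Uqcr10 and Atp5g2 (horizontal axis, brightest first), normal arrays in blue and knockout arrays in red. In Ndufa12 only 1455806_x_at separates widely, and in Uqcr10 and Atp5g2 the bright probe set overlaps between groups while dim ones separate.

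Disagreement between probe sets of one gene was common. Of 86 genes, 49 had several kept probe sets, and of these 13 had all on the higher side, 9 all on the lower side and 27 mixed signs. The median span of log2 differences within a gene was 0.157. In 4 of the 27 (Ndufa12, Sdha, Uqcr10 and Atp5g2), at least 1 of the probe sets had an unadjusted p under 0.05.

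Complex IV, cytochrome c oxidase, supplied 27 kept probe sets of 15 genes, counting Ndufa4, now regarded as one of its subunits, and its paralog Ndufa4l2. The median difference was -0.0008, with 13 higher and 14 lower. None passed and none had an unadjusted p under 0.05 by limma, against 11.5% of all kept probe sets. The groups of 1 probe set did not overlap (3.7%, against 17.9% of all). Over the 19 probe sets brighter than 1024 the differences ran from -0.18 to 0.13. Cox4i1, the ubiquitous form of subunit 4, read 3956, 4303.1 and 3984.8 on normal and 3870.5, 3967.5 and 4140.5 on knockout arrays, a difference of -0.03 (SE 0.07). Cox5a differed by 0.03, 0.07 and -0.15, and the 4 bright probe sets of Cox5b by 0.06 to 0.13. Cox6c differed by -0.06 and -0.18, and Ndufa4 by 0.02.

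Several subunits of complex IV have a ubiquitous form and a form of heart and skeletal muscle. The ubiquitous Cox6a1 was the probe set without overlap: 1417417_a_at read 5825.6, 5821.5 and 5416.3 on normal and 5086.9, 4999.2 and 5329.2 on knockout arrays, a difference of -0.15 (SE 0.07, limma adjusted p = 0.454). Its muscle counterpart Cox6a2 was dim, at 38.3, 27.2 and 27 on normal and 33.4, 65.5 and 22.6 on knockout arrays, a difference of 0.27 (SE 0.39). The single raised value was in knockout replicate 2, the array with the highest sum of skeletal muscle markers, 9443. The ubiquitous Cox7a2 differed by -0.02 in both probe sets, and the muscle form Cox7a1 read 25.2, 14.8 and 15.8 against 15.3, 7.2 and 24.5, a difference of -0.38 (SE 0.50). The ubiquitous Cox8a differed by -0.06 and 0.01, and the muscle form Cox8b was not kept, with no array over 14.9.

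Other isoforms also overlapped between the groups. Cox6b1 differed by 0.02 in both probe sets, and Cox6b2, known from testis, read 304.3, 267 and 283.1 on normal and 300.8, 353 and 328.5 on knockout arrays, a difference of 0.20 (SE 0.11, limma adjusted p = 0.512). Cox8c, also known from testis, differed by 0.10 (SE 0.17), and Cox4i2, a form known from lung, was not kept, with no array over 27.7. Cox7b2 had no kept probe set either. Cox7c was measured here by dim probe sets only, which differed by -0.19 and -0.39 (SE 0.22 and 0.37). Ndufa4l2, a gene known to respond to low oxygen, read 121.7, 31.4 and 25.7 against 77.8, 46.9 and 16.6, so replicate 1 of each group was its highest, and the difference was -0.23 (SE 0.67). The chromaffin and sympathetic markers also summed highest in replicate 1 of each group, at 2006 against 306 and 555 in the other normal arrays and at 1426 against 813 and 382 in the other knockout arrays, and their part in Ndufa4l2 was not tested.

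Complex V, the ATP synthase, supplied 30 kept probe sets of 17 genes with a median of -0.008, 14 higher and 16 lower. None passed, and 2 had an unadjusted p under 0.05 by limma (6.67%, against 11.5% of all kept probe sets). For 25 of 30 (83.3%) the interval lay within 1.5-fold, and the 25 probe sets brighter than 1024 ran only from -0.12 to 0.12. In the catalytic head, Atp5b, the beta subunit, read 5132.2, 5533.9 and 5010.1 on normal and 5083.4, 5304.7 and 5236.3 on knockout arrays, a difference of -0.00 (SE 0.07). The alpha subunit gene Atp5a1 differed by 0.05 and 0.12 in its bright probe sets and by 0.37 (SE 0.16, limma adjusted p = 0.424) in the dim 1420037_at, which did not overlap. Atp5c1, the gamma subunit that turns inside the head, differed by 0.06 in its bright probe set. In the stalk, Atp5h read 4269.8, 4888.6 and 4785.8 against 5031.9, 5023.9 and 5018.7 on 1435112_a_at, higher without overlap by 0.11 (SE 0.07, limma adjusted p = 0.580), and its other probe set differed by -0.04.

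The c-ring, through which protons pass, is encoded by 3 genes that give the same mature protein. Atp5g3 read 5984.9, 6174.4 and 5386.7 on normal and 5460.3, 5467.3 and 5739.2 on knockout arrays, a difference of -0.07 (SE 0.08). The bright probe sets of Atp5g1 and Atp5g2 differed by -0.09 (SE 0.11) and 0.07 (SE 0.10). A dim probe set of Atp5g2, 1456128_at, read 67.8, 38.2 and 29.5 on normal and 15, 17.1 and 18 on knockout arrays, lower without overlap, a difference of -1.35 (SE 0.35, limma adjusted p = 0.202). A dim probe set of Atp5g1, 1444874_at, differed by 0.57 (SE 0.43). None of the c-ring probe sets passed, but with array medians set equal 1456128_at did (limma adjusted p = 0.0323).

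The remaining 13 kept probe sets, of 9 genes, encode Cox7a2l and the Ndufaf proteins. Cox7a2l helps complexes III and IV to join into a supercomplex, and its 3 probe sets differed by 0.10, 0.16 and 0.22. The last of these, 1432263_a_at, read 816.5, 950.9 and 942.9 on normal and 1020.1, 1081.3 and 1045.7 on knockout arrays, without overlap (SE 0.09, limma adjusted p = 0.405). The Ndufaf proteins assemble complex I. Ndufaf1 read 309, 327.1 and 392.9 against 320.2, 283.5 and 301.7, a difference of -0.18 (SE 0.12, limma adjusted p = 0.589), and the others ran from -0.18 (Ndufaf5) to 0.09 (Ndufaf7). The median of the class was 0.021, all 13 intervals lay within 1.5-fold, and none passed. At an unadjusted limma p under 0.05 there was 1 (7.69%, against 11.5% of all kept probe sets).

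The members left out as dim were 15 probe sets whose highest signal on any array was 27.7. For most of their genes a brighter probe set was kept, so their low values describe the probe sets, and Ndufb4, Cox4i2, Cox7b2 and Cox8b were the genes with none.

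Other nuclear genes of mitochondria gave a like picture. The 8 lists of mitochondrial genes included the subunits encoded by mitochondrial DNA, for which no gene was found by symbol. The 168 genes kept, by the brightest probe set of each, were therefore all nuclear. The median difference was -0.025, beside -0.003 over all 12464 genes, none passed on the higher side and 1 on the lower, or 0.595% against 0.602% of all genes, which is the background rate. At an unadjusted p there were 16, or 9.52%, against 11.7% of all genes. The mitochondrial ribosomal proteins, which serve the translation of the subunits encoded by mitochondrial DNA, had 27 higher and 49 lower of 76, with a median of -0.04; their smallest p was that of Mrpl55, at 0.53 (SE 0.16, limma adjusted p = 0.288). The list of electron carriers and chain proteins outside the symbol rule holds Cyc1 and the Coq genes for ubiquinone. Its 15 kept genes split 8 to 7 (median 0.02). The 34 assembly factors split 18 to 16 (0.01), and the 16 genes of the tricarboxylic acid cycle and pyruvate dehydrogenase 6 to 10 (-0.03). For the 13 subunits encoded by mitochondrial DNA no probe set carried the symbol in the annotation used, and they are not analysed here.

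The gene that passed was Timmdc1, an assembly factor of complex I whose symbol lies outside the Nduf names. Its probe set 1420329_at read 193.2, 158.5 and 187.5 on the normal arrays and 89.5, 91.8 and 89.1 on the knockout arrays. The knockout arrays were close to each other and all well below the normal ones, at 90.1 ± 1.46 against 180 ± 18.6 (SD, n = 3 each). Timmdc1 fell, with a log2 difference of -0.99 (SE 0.14), or 1.99-fold lower (limma adjusted p = 0.0181). It passed under 11 of 19 other settings. It did not pass, among others, without the intensity trend (limma adjusted p = 0.0738), nor without normal replicate 3 (0.0761), knockout replicate 1 (0.0794), 2 (0.0861) or 3 (0.0830), the arrays numbered 1 of both groups (0.162) or knockout replicates 1 and 2 (0.200).

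Among the other lists, none passed by limma, and the gene with the smallest p of each is given. Dlst, of the oxoglutarate dehydrogenase complex, differed by -0.35 (SE 0.09, limma adjusted p = 0.210). Pprc1, a coactivator related to PGC-1, read 537.3, 637.5 and 579.7 on normal and 512.1, 423.8 and 482.5 on knockout arrays, lower without overlap by a log2 difference of -0.31 (limma adjusted p = 0.347). Coq4, needed to make ubiquinone, differed by -0.16, the ADP/ATP carrier Slc25a5 by -0.11, and the superoxide dismutase Sod2 by 0.19, with limma adjusted p between 0.593 and 0.680.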

How the data were processed

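Each probe set has 1 deposited intensity per array on a linear scale. MAS5 made it, per the submitters' processing notes, with version, settings and detection calls not given. The labels' protocols give 1 µg of total RNA per sample and a single amplification cycle with biotin. Each array has a trimmed mean near 150 (between 148.7 and 149.9), and the array medians span 0.37 on the log2 scale, so no scaling was added. After the 64 controls were left out, 15 zeros were set to 1.7, log2 of the deposited intensity was taken, and probe sets with a mean over the 40th percentile (a signal of 14.7) were kept. Knockout and normal were fitted by limma 3.58.1 under R 4.3.3 (lmFit and eBayes with an intensity trend, Benjamini-Hochberg over 27022 probe sets, threshold 0.05), and the fit was tested on simulated data. Values after SE are standard errors of log2 differences. The number of arrays, 3 in each group, limits the precision, and an exact permutation test of 1 value could not go below 0.1.

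Members and lists were chosen with earlier results of these data known. Named are members past the threshold, the 2 smallest p and the extremes of each class, all Sdh genes, cytochrome c oxidase isoforms, c-ring genes, genes whose probe sets differ in sign with an unadjusted p under 0.05, and of each other list the passing gene or else that with the smallest p; other names were chosen after their values were seen. Symbols come from the platform annotation (34945 probe sets with 1 symbol, 932 with several, 9160 with none), and all 179 members matched the RefSeq gene table with no symbol changed. Alternatives covered scaling, filters, a pseudocount of 16, variance models, the replicate block, gene summaries and leaving out arrays.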

Additional observations from a re-analysis of the deposited data

How the results depend on the processing

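Among the named probe sets, alternatives gave 716 values with the same direction and call, 13 that no longer passed, 8 that newly passed and 52 small uncalled ones of opposite sign; no called value reversed, and the causes were not tested. The count of members past the threshold was 2 in the reported fit, where 157 of all kept probe sets passed. With array medians set equal it was 4 (3 higher, 1 lower), adding Uqcr10 1434341_x_at and Atp5g2 1456128_at, while 434 of all passed. It was 1 with the filter at the 60th percentile (Ndufa12, with 144 of 18015 probe sets). It was 1 without an intensity trend (Uqcr10, with 41 of all) and 1 with the mean of a gene's probe sets (65 of 12464 genes). The array-wide count thus moved with the setting as well. The members' count was 0 by the brightest probe set (102 of 12464 genes). It was also 0 without the arrays numbered 1, a setting chosen after seeing the data (31 of all kept probe sets). Leaving out each array in turn gave 2 to 3 members, with 49 to 148 of all kept probe sets. The median of complex II was 0.084 without the arrays numbered 1. It was also 0.084 without knockout replicates 1 and 2, a setting likewise chosen after seeing the data, which leaves 1 knockout array. Leaving out 1 array moved the median of complex IV between -0.052 and 0.050 and that of the assembly class between -0.081 and 0.040 (-0.072 without the arrays numbered 1). Replicate numbers did not pair the arrays (correlations of same-numbered deviations 0.08, -0.11 and -0.20). The replicate block gave 3 members, with 109 of all kept probe sets, and Timmdc1 did not pass with it (limma adjusted p = 0.0654). Values near the filter level of 14.7 have wide errors, which limits dim members.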
